A study of Drosophila melanogaster with 2 samples.

Results

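The nuclear genes for subunits of the oxidative phosphorylation complexes were examined for peaks of dmrt93B, a DM-domain transcription factor of the family that includes Doublesex. Members were the protein-coding genes of the nuclear chromosomes of Drosophila melanogaster whose symbol begins with ND-, UQCR-, COX and a digit, or ATPsyn, together with blw. The rule found 81 of the 13945 protein-coding genes on the chromosome arms that carried peaks. They comprised 40 genes of complex I (ND-), 9 of complex III (UQCR-), 16 of complex IV (COX) and 16 of complex V (ATPsyn and blw). The rule used names alone, and no peak value entered it.

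The study profiled dmrt93B by chromatin immunoprecipitation and sequencing (ChIP-seq) in whole wandering larvae of the final instar, with males and females pooled, of a line that stably carries a dmrt93B transgene fused at its C-terminal end to GFP. The 2 biological replicates formed a single group, so no condition could be compared with another, and a peak in whole larvae cannot be assigned to a tissue. The free-text description of both libraries speaks of an input control, while the assay title and the antibody label name dmrt93B ChIP; the libraries are treated here as labelled by the antibody. Each replicate had a deposited list of 30000 entries ranked by signal, the authors' measure of peak strength. A pooled list of the same length and a pooled optimal list of 4159 peaks, selected by reproducibility, completed the data. The pooled list of 30000 is labelled as peaks and background, the input for that selection, and the replicate lists have the same length. An entry in a full list is therefore not by itself a called peak. Read depth is unknown, and the intervals on shares below are 95% Wilson intervals that cover counting error only. Signals lay on a scale of each list's own, so values of the replicates are set side by side by rank.

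Oxidative phosphorylation takes place in the inner mitochondrial membrane. Complex I oxidises NADH and complex III passes the electrons from ubiquinol to cytochrome c; complex IV hands them to oxygen, and the ATP synthase, complex V, uses the proton gradient that builds up. A few core subunits are encoded by mitochondrial DNA and the others by the nucleus, so the nuclear genes must be expressed together with the mitochondrial ones. In Drosophila many of the nuclear genes have a duplicate, marked by an L at the end of the symbol, and many of these duplicates are known for expression in the testis.

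A promoter peak was counted where the summit of a peak, its point of highest signal, lay within 500 bp of any annotated transcription start site (TSS) of the gene. In the optimal list 11 of the 81 members had one, 13.6% (interval 7.76 to 22.7), and the background over all protein-coding genes was 13.1% (1821 genes). The members' share was therefore near the background. The 11 genes were ND-ASHI, ND-MWFE, ND-SGDH, ND-51, ND-MNLL and ND-23 of complex I, UQCR-11 of complex III, COX7AL2, COX5B and COX7B of complex IV, and blw of complex V. The median optimal rank of these 11 genes' strongest promoter peaks was 1885, and that of all 1821 genes was 1477. In the stronger part of the optimal list, its upper 2079 entries, 6 of the 11 genes had their promoter peak (54.5%), as did 64.9% of all genes with one.

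The 4 complexes did not stand apart from each other in the optimal list. The count was 6 of 40 genes for complex I (15.0%, interval 7.06 to 29.1) and 1 of 9 for complex III (11.1%, interval 1.99 to 43.5). For complex IV it was 3 of 16 (18.8%, interval 6.59 to 43.0), and for complex V 1 of 16 (6.25%, interval 1.11 to 28.3). All 4 intervals overlapped and each contained the 13.1% background. The spread of subunit classes was wide, since the 11 genes ranged from core subunits, such as ND-51 and blw, to small accessory ones, such as ND-MNLL.

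Sequence was read from the genome where the summit lay between the start sites of a pair of genes that are transcribed away from each other, because that arrangement held at most of the bound members. In each line below the run is the whole stretch between the member's TSS and the TSS of the divergent gene, neither included, 5′ to 3′ on the strand of the member, which lies beyond the right end. Build and sequence are dm6, NCBI Release 6. Capitals mark the letters TTAAAA or TTTTAA, its reverse complement, and TATCGATA, the DNA replication-related element (DRE), which holds the core ATCGATA on both strands. The stretch of ND-SGDH, beside RhoGAP68F, is chr3L:12138585-12138867 on the minus strand, 283 bp long, with the summit at base 193. That of ND-51, beside CG13994, is chr2L:6062758-6062988 on the minus strand, 231 bp, with the summit at base 155. COX5B, beside the ciliary transport gene IFT52, has chr2L:6557503-6557799 on the plus strand, 297 bp, with the summit at base 60. COX7B, beside the exocyst gene Sec3, has chr3L:17425218-17425476 on the plus strand, 259 bp, with the summit at base 153. ND-MNLL, beside the vesicle-tethering gene p115, has chrX:7893799-7894030 on the minus strand, 232 bp, with the summit at base 160.
ND-SGDH: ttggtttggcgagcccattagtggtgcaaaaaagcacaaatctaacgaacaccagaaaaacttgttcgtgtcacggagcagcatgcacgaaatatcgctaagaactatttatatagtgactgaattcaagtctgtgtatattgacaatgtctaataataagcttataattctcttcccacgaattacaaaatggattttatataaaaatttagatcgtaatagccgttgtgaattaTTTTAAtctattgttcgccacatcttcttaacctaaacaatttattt
ND-51: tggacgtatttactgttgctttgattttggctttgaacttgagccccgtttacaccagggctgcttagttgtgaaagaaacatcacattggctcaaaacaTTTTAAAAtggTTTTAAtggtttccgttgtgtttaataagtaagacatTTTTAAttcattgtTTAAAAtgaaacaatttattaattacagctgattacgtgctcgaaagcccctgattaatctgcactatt
COX5B: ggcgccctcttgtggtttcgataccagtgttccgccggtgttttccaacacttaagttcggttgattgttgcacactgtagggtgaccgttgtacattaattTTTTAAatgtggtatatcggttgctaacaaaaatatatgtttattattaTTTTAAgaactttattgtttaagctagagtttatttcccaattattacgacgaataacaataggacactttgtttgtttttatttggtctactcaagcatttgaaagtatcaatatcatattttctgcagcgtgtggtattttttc
COX7B: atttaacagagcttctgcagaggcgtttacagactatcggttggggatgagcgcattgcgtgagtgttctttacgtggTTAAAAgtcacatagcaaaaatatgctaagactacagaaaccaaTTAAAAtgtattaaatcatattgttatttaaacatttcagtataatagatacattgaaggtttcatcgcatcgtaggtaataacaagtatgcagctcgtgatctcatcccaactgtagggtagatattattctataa
ND-MNLL: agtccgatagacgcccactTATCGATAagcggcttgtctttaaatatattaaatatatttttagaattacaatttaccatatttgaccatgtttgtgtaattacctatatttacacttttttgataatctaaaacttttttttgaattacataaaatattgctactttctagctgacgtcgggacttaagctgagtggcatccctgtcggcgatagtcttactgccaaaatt

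For ND-ASHI, the member with the strongest peak, and UQCR-11, the only one of complex III, the run is the summit with 50 bp on either side. The window of ND-ASHI is chrX:6679331-6679431 on the minus strand and that of UQCR-11 chr3L:25120597-25120697 on the plus strand, in the same build and with the same capitals.
ND-ASHI: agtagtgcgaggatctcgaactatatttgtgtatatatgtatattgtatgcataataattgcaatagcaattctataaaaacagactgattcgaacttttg
UQCR-11: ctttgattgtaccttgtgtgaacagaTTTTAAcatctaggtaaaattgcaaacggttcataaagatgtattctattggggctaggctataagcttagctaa

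In the printed stretches, TTAAAA or its reverse complement was found 5 times at ND-51, 2 times each at COX5B and COX7B, once at ND-SGDH and not at ND-MNLL, counting overlapping matches. The stretch of ND-MNLL held the DRE. Stretches of ND-ASHI, beside Fum1, and ND-23, beside spn-E, were read but are not printed. That of ND-ASHI held TTAAAA once. That of ND-23 held no TTAAAA but, like that of ND-MNLL, held the DRE, with its core matched on both strands. ND-MWFE, beside TppII, had the same arrangement, but its stretch was not included here. Its summit window held no TTAAAA. The summit windows of 6 of the 11 bound members contained TTAAAA (54.5%), compared with 36.6% of the 1636 optimal promoter summits and 33.8% of all 4159 optimal summits. No summit window of a bound member contained the DRE, and 2.38% of the optimal promoter summits did. A match describes letters in a window and does not show a site in use.

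Complex I held the strongest member peaks. ND-ASHI encodes an accessory subunit of the membrane arm, and its optimal peak had signal 749 and rank 258, with the summit at base 6679381 of the X chromosome. Replicate 2 listed it at signal 324 and rank 261, whereas the nearest entry of replicate 1 lay 24422 bp away. The summit lay 263 bp upstream of ND-ASHI and 259 bp upstream of a TSS of Fum1, the gene of the citric acid cycle enzyme fumarase, so the 2 start sites were about equally near. Another transcript of Fum1 spans the position, which is therefore annotated as an intron of Fum1.

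ND-MWFE, an accessory subunit gene on arm 2R, had an optimal peak of signal 698 and rank 309. Its entries in the replicates had signal 423 and rank 253 in replicate 1, and signal 279 and rank 373 in replicate 2. The summit, at base 13158459, was 207 bp upstream of ND-MWFE but 14 bp upstream of a TSS of TppII, which encodes tripeptidyl peptidase II. Both replicates thus placed this peak among their leading entries, and it stood nearer to the neighbouring gene than to the member.

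ND-51 encodes the flavoprotein subunit that binds NADH, and its peak had a similar rank in every list. The optimal peak had signal 277 and rank 1533, and its summit at base 6062834 of arm 2L lay 77 bp upstream. Replicate 1 listed it at signal 138 and rank 1594, and replicate 2 at signal 141 and rank 1370. The divergent gene CG13994 began 155 bp from the summit on the other side.

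The other 3 complex I genes, like ND-ASHI, had no entry in replicate 1 near their optimal summit. ND-SGDH, an accessory subunit gene, had optimal signal 422 and rank 837 with the summit 91 bp upstream at base 12138675 of arm 3L; replicate 2 listed it at signal 173 and rank 974. The nearest replicate 1 entry lay 21793 bp away. ND-MNLL, a small accessory subunit gene, had optimal signal 124 and rank 3782 with the summit 73 bp upstream at base 7893871 of the X chromosome. Replicate 2 listed it at signal 74.1 and rank 3267, and the nearest replicate 1 entry lay 7482 bp away. CG45089 is annotated on the same interval as ND-MNLL with the same TSS, so a peak there cannot be assigned to either of them. ND-23, which encodes an iron-sulfur core subunit, had the weakest of the 11 peaks, with signal 121 and rank 3874, 183 bp upstream at base 15837300 of arm 3R. Its replicate 2 entry lay 118 bp from that summit and had signal 40.4 and rank 7071; a further entry of replicate 2 had its summit 35 bp upstream of the TSS, at rank 6315. The nearest replicate 1 entry lay 9419 bp away. The nearest TSS, 119 bp from the summit, was that of spn-E, a helicase gene of the piRNA pathway.

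UQCR-11, a gene for a small subunit of complex III, was weak in the optimal list and uneven between replicates. The optimal peak had signal 128 and rank 3625, with the summit 62 bp upstream at base 25120647 of arm 3L and no other gene's TSS within 500 bp. It had signal 108 and rank 2112 in replicate 1, against signal 24.2 and rank 13694 in replicate 2. Its −log10 q in replicate 2 was 0.83, whereas the highest value that this list held was 4.04. The replicates therefore differed at UQCR-11 in the opposite direction to ND-SGDH, ND-MNLL and ND-23.

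All 3 complex IV genes were among the 4159 strongest entries of both replicates. COX7AL2, a duplicate of a small subunit gene, had optimal signal 235 and rank 1885, with signal 164 and rank 1304 in replicate 1, and signal 78.8 and rank 3022 in replicate 2. Its summit was the only one of the 11 downstream of the start, 457 bp into the gene at base 2197455 of arm 2L, in the annotated 5′ UTR. The replicate 1 entry lay 30 bp from that summit and the replicate 2 entry 150 bp. In all, COX7AL2 had 2 optimal summits within the 500 bp window, the nearer one 255 bp from the TSS, and 3 within the gene. COX5B and COX7B, genes for small nuclear-encoded subunits, had lower signals. COX5B had optimal signal 193 and rank 2352, signal 108 and rank 2119 in replicate 1, and signal 89.3 and rank 2562 in replicate 2. Its summit, at base 6557562 of arm 2L, was 238 bp upstream of COX5B and 60 bp from the TSS of IFT52. COX7B had optimal signal 167 and rank 2785, signal 91.2 and rank 2517 in replicate 1, and signal 76.2 and rank 3142 in replicate 2, with the summit 107 bp upstream at base 17425370 of arm 3L. Of these genes COX7B was the one nearest to its own summit.

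In complex V, blw (bellwether), which encodes the alpha subunit of the catalytic F1 head, was the single gene with an optimal promoter peak. The optimal signal was 493 at rank 634, with signal 267 and rank 644 in replicate 1 and signal 224 and rank 590 in replicate 2. The summit, at base 22798961 of arm 2R, lay 138 bp upstream of blw in intergenic sequence, and no other gene had a TSS within 500 bp. The peak of blw was thus at nearly the same rank in all lists and had no neighbouring start site. ATPsynbeta, which encodes the catalytic partner of blw in the F1 head, had an entry in replicate 2 alone, at signal 45.8 and rank 6017. Its nearest optimal summit was 4221 bp away.

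**Figure D1:**
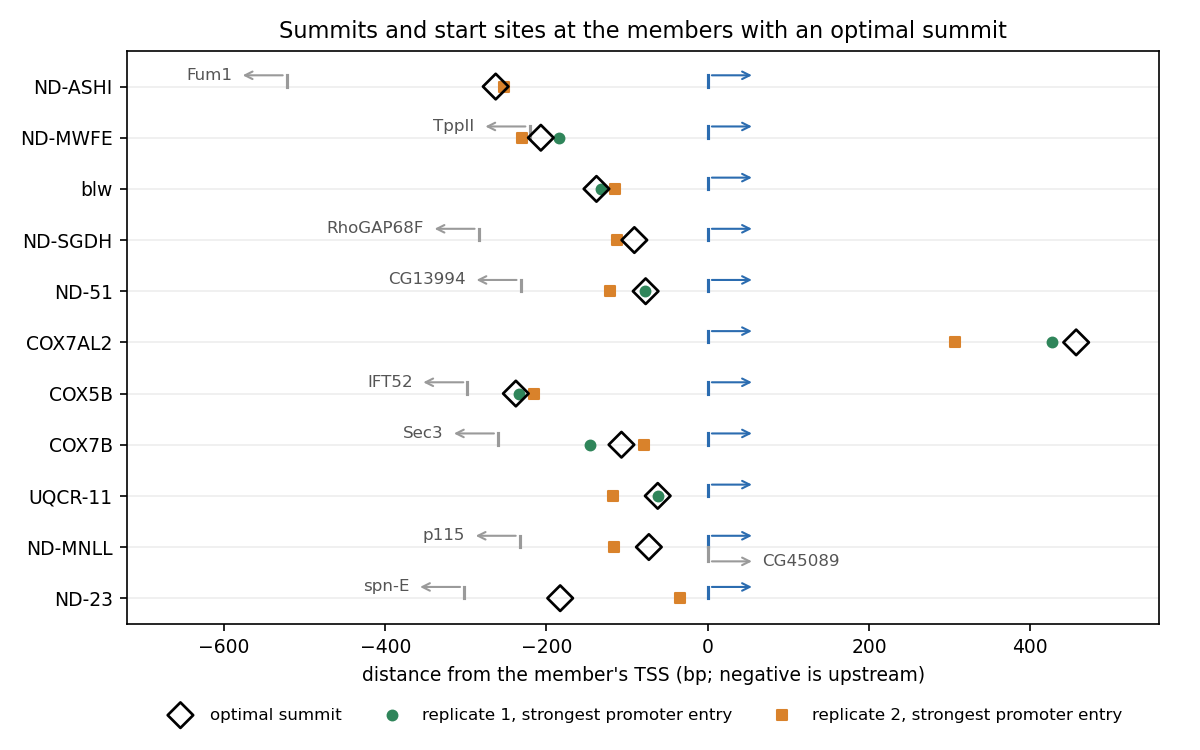
Positions at the 11 members with an optimal promoter peak, as distance from the TSS in bp with upstream at the left; open diamonds mark the optimal summit, circles and squares the strongest promoter entry of replicate 1 and of replicate 2, and arrows the start sites of the member (blue) and of other genes (grey). In 10 of the 11 rows the optimal summit is upstream, in 8 another gene's TSS is within 500 bp of it, and 4 rows have no circle.

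Summits clustered upstream of the members as they did at other genes. Upstream positions were found at 10 of the 11 members (90.9%), compared with 90.2% of all 1821 genes with an optimal promoter peak. The median offset from the member's TSS was -107 bp with quartiles of -195 and -75 bp, and for all such genes -158 bp with quartiles of -250 and -85 bp. Among the strongest 4159 entries the members' median offset was -132 bp in replicate 1 and -84 bp in replicate 2, and for all genes -165 bp in replicate 1 and -138 bp in replicate 2. The members' median lay nearer to the TSS than that of all genes in each of these lists, and the difference was not tested. It did not hold in the full list of replicate 1, with -125.5 bp for the members and -123 bp for all genes. In the full list of replicate 2 the medians were -47 bp and -104 bp.

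Shared promoters accounted for most of the bound members. At 8 of the 11 the TSS of another protein-coding gene lay within 500 bp of the summit, and at all 8 the start sites were on both strands. The exceptions were blw, COX7AL2 and UQCR-11. Another gene's TSS also lay within 500 bp of the member's own TSS at the same 8. Of all 1821 genes with an optimal promoter peak, 971 had such a neighbour, also the larger part. The TSS nearest to the summit belonged to the member alone at 6 of the 11, to another gene at ND-ASHI, ND-MWFE, COX5B and ND-23, and to ND-MNLL and CG45089 jointly. At all 8 shared promoters the position alone cannot assign the peak to 1 of the genes.

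The arrangement is common among these genes. Of the 81 members, 40 had another gene's TSS within 500 bp of one of their own (49.4%), against 30.9% of all protein-coding genes. Among members with such a neighbour 8 of 40 had an optimal promoter peak (20.0%), and among all genes with one the share was 22.5%. Without a neighbour it was 3 of 41 members (7.32%), compared with 8.82% of all such genes. Read against genes of the same arrangement, the members were therefore close to the background in both classes.

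The replicates differed in how many members they listed. With lists cut to equal length, 9 of 81 members (11.1%, interval 5.96 to 19.8) had a promoter peak among the 4159 strongest of replicate 1, where the background was 10.1%. The count for replicate 2 was 17 of 81 (21.0%, interval 13.5 to 31.1), where the background was 17.1%. Over the replicates this made 16.0% ± 6.98 of the members and 13.6% ± 4.97 of all genes (SD, n = 2). In both strongest lists were 6 members (7.41%), near the 8.36% background; they were ND-MWFE, ND-51, COX5B, COX7AL2, COX7B and blw.

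Members found among the strongest of a single replicate were mostly those of replicate 2, as were all protein-coding genes. Of the latter, 243 were in replicate 1 alone and 1224 in replicate 2 alone. In replicate 1 alone were UQCR-11, ATPsynCF6, which encodes the coupling factor in the peripheral stalk, and ND-AGGG, an accessory complex I gene. ATPsynCF6 had signal 61.3 and rank 3782 in replicate 1, against signal 42.7 and rank 6569 in replicate 2. ND-AGGG had rank 4043 in replicate 1 and rank 14696 in replicate 2. Replicate 2 alone had 11 genes, of which ND-ASHI, ND-SGDH and ND-MNLL were also in the optimal list. The other 8 were ND-42 at rank 1416, ND-24 at rank 1791, COX6B at rank 2224, ND-B18 at rank 2778, UQCR-14 at rank 2797, COX5A at rank 2976, ATPsynE at rank 3409 and ATPsyngamma at rank 4093. None of these 8 had a promoter entry anywhere in the full list of replicate 1. ND-24 is a core subunit of the NADH-binding arm, and ATPsyngamma forms the rotating shaft of the ATP synthase. At ND-42, an accessory subunit gene, the nearest replicate 1 summit was 16596 bp from the TSS.

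**Figure D2:**
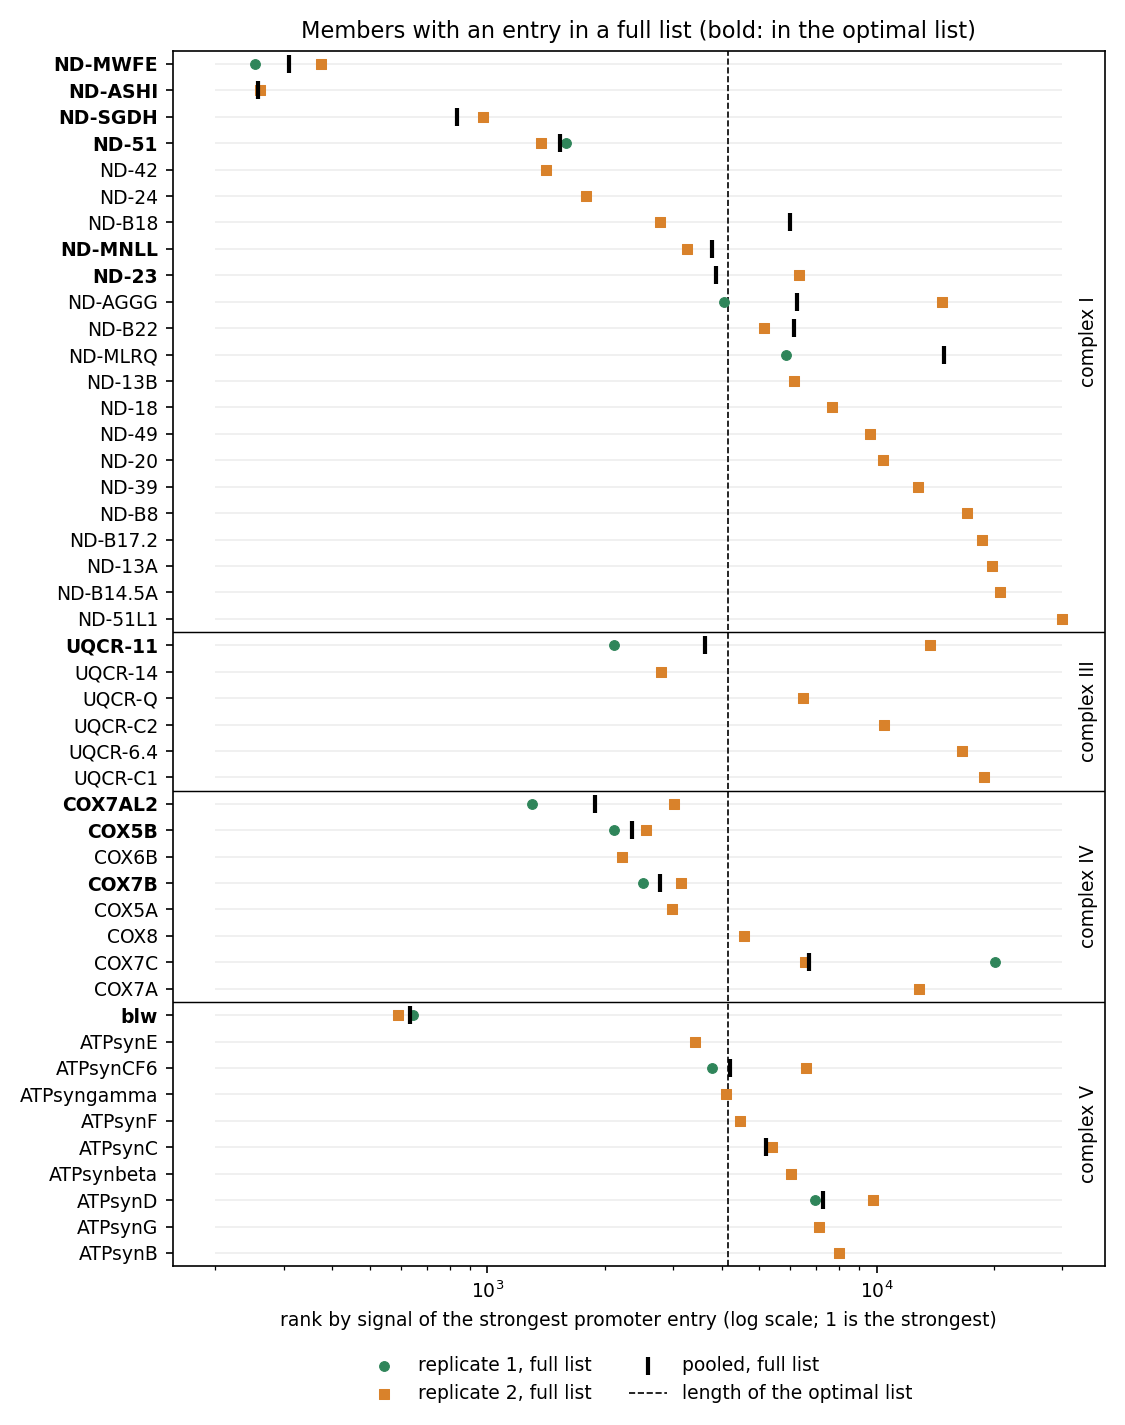
Rank by signal, on a log axis, of the strongest promoter entry in the full list of each replicate and in the full pooled list, for the 46 members with an entry in any of them, ordered by complex; the dashed line marks rank 4159. Squares of replicate 2 are present at 45 members and circles of replicate 1 at 12.

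The full lists of 30000 entries widened the gap. Promoter entries of replicate 2 covered 45 of 81 members (55.6%, interval 44.7 to 65.9), with a background of 46.4%. Those of replicate 1 covered 12 of 81 (14.8%, interval 8.68 to 24.1), below its background of 24.3%. In both of these lists at once were 11 members (13.6%), and the background for both was 16.5%. These were not the same 11 genes as in the optimal list. They shared 7 with it, and ATPsynCF6, ATPsynD, COX7C and ND-AGGG were not in it. The pooled list held 19 members (23.5%, interval 15.6 to 33.8), with a background of 30.4%. The 11 members in both full lists were 91.7% of those of replicate 1 and 24.4% of those of replicate 2. For all protein-coding genes, 2294 were in both, which was 67.6% of those of replicate 1 and 35.4% of those of replicate 2. Replicate 1 thus added only ND-MLRQ, at rank 5854, to the members that replicate 2 already had. The sign of the difference from the background was not the same in the replicates.

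**Figure D3:**
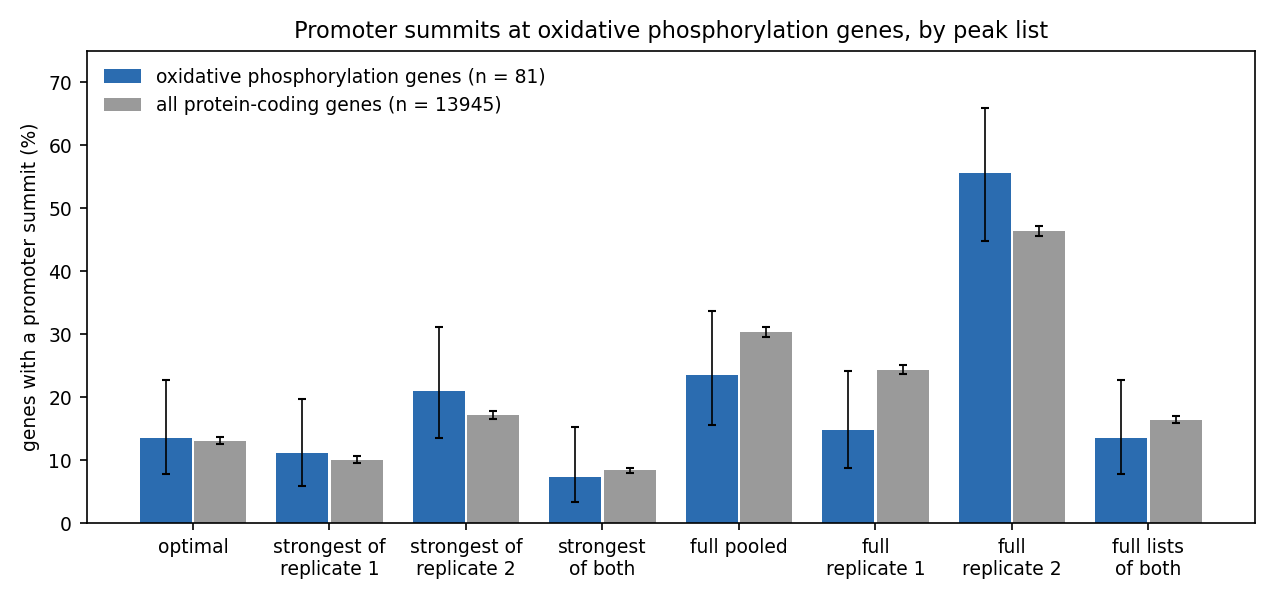
Share of the 81 members (blue) and of all 13945 protein-coding genes (grey) with a summit within 500 bp of a TSS, in percent, for 8 lists; error bars are 95% Wilson intervals. The members are at 13.6% and all genes at 13.1% in the optimal list, while in the full list of replicate 1 the members are at 14.8% and all genes at 24.3%, and in that of replicate 2 the members are at 55.6% and all genes at 46.4%.

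On the X chromosome the members' entries all came from replicate 2. Of the 12 members on the X, 9 had a promoter entry in the full list of replicate 2 (75%, interval 46.8 to 91.1). None had one in that of replicate 1, for which the interval reached 24.2%. Of all 2196 X-linked protein-coding genes 1207 had an entry in replicate 2 (55.0%) and 485 in replicate 1 (22.1%). The members' interval contained the share of all X-linked genes in each replicate. On the autosomes 36 of 69 members had an entry in replicate 2 (52.2%, interval 40.6 to 63.5), compared with 44.8% of all 11749 autosomal genes. In replicate 1 it was 12 of 69 (17.4%, interval 10.2 to 28.0), compared with 24.7% of all autosomal genes, and both intervals contained the share of all genes. Depth and peak calling are not known for the libraries, and their part in the difference was not tested.

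Duplicates and the original genes, those without the L, were listed at different shares; the difference was not tested. Of the 60 members that are not L duplicates, 43 had a promoter entry in the full list of replicate 2 (71.7%, interval 59.2 to 81.5), compared with 2 of the 21 duplicates (9.52%, interval 2.65 to 28.9); the list's background was 46.4%. Those 2 were COX7AL2 and ND-51L1, and ND-51L1 was at rank 29968 with signal 13.1, near the end of the list. Start sites of other genes moved with this division. Another gene's TSS lay within 500 bp at 37 of the 60 (61.7%) and at 3 of the 21 duplicates. Among members without such a neighbour, replicate 2 still had entries at 12 of 23 originals (52.2%) and at 2 of 18 duplicates (11.1%), and the share of all protein-coding genes without a neighbour was 37.8%. In replicate 1 the counts were 11 of 60 originals (18.3%, interval 10.6 to 29.9) and 1 of 21 duplicates (4.76%, interval 0.846 to 22.7), with a background of 24.3%. In the optimal list they were 10 of 60 originals (16.7%, interval 9.31 to 28.0) and 1 of 21 duplicates (4.76%), with a background of 13.1% inside both intervals.

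**Figure D4:**
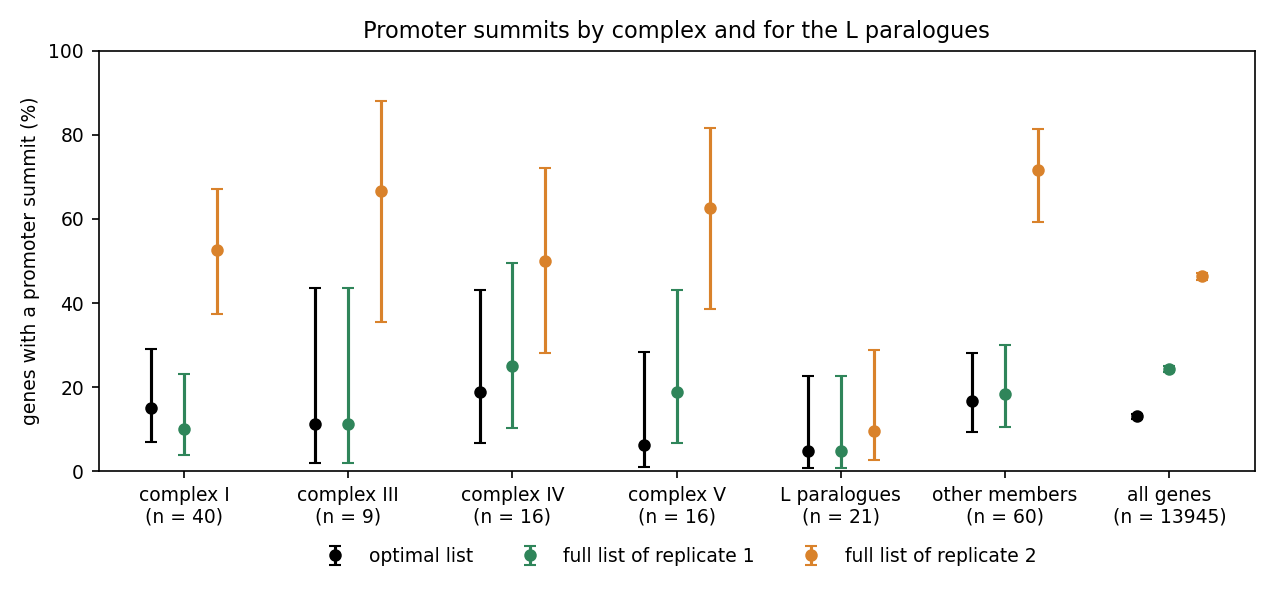
Share of genes with a promoter summit, in percent with 95% Wilson intervals, by complex, for the L duplicates, for the other members and for all protein-coding genes, in the optimal list and in the full list of each replicate. In replicate 2 the 60 other members are at 71.7% and the 21 duplicates at 9.52%, while complex III is at 66.7% and complex I at 52.5%.

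By complex, the full list of replicate 2 covered 21 of 40 genes of complex I (52.5%), 6 of 9 of complex III (66.7%), 8 of 16 of complex IV and 10 of 16 of complex V (62.5%). The intervals overlapped, and each contained the 46.4% background of that list, so no complex stood apart from it. Replicate 1, with a background of 24.3%, covered 4 of 40 genes of complex I (interval 3.96 to 23.1%), 1 of 9 of complex III (interval 1.99 to 43.5%), 4 of 16 of complex IV (interval 10.2 to 49.5%) and 3 of 16 of complex V (interval 6.59 to 43.0%). The interval of complex I lay below that background and the other 3 contained it. In complex III the 6 genes were all those without an L, among them UQCR-C1 at rank 18856 and UQCR-C2 at rank 10430, which encode the large core proteins. In complex IV the only original gene in no list was COX4, and in complex V they were ATPsynO and ATPsyndelta. Complex I had 13 originals in no list, including ND-75, which encodes its largest iron-sulfur subunit. In all, 35 members were in no full list, of which 19 were duplicates. The share of all protein-coding genes in no full list was not counted, so these counts have no background beside them.

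Below the optimal list, the leading pooled entries were led by complex V. ATPsynCF6 was at pooled rank 4210, only just past the end of the optimal list, with signal 111. ATPsynC, which encodes the subunit of the membrane rotor ring, followed at rank 5200 with signal 91.9, and ATPsynD, of the peripheral stalk, at rank 7298 with signal 66.7. The accessory complex I genes followed closely on each other, with ND-B18 at rank 5992, ND-B22 at rank 6138 and ND-AGGG at rank 6255. COX7C of complex IV was at rank 6692. COX7C differed between replicates, with rank 20133 in replicate 1 and rank 6562 in replicate 2. Complex III had no further pooled entry. Just inside the 500 bp window the farthest nearest summits were those of ND-ASHI at 263 bp and COX7AL2 at 255 bp; just outside were ND-75 at 756 bp and ATPsynE at 821 bp.

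The base composition and motifs of the members' promoters were described in windows from 250 bp before to 50 bp after the TSS of the canonical transcript, 300 bp in all. GC content averaged 35.9% ± 6.57 over the 81 members and 39.3% ± 7.80 over 13944 protein-coding promoters (SD over promoters). The core of Motif 1, GGTCACAC, an element of many Drosophila housekeeping promoters, was found on either strand in 16 of 81 members (19.8%) and in 7.54% of all promoters. TTAAAA was found in 58 of 81 (71.6%) and in 52.6% of all promoters, and the DRE in 8 of 81 (9.88%) and in 8.94%. The GAGA letters GAGAGAG occurred in 1 of 81 members (1.23%), compared with 6.20% of all promoters. The DM-domain letters ACAATGT, its reverse complement ACATTGT, or TGTATCA were present in 8 of 81 (9.88%) and in 7.18% of all promoters.

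The promoters of bound and unbound members were set side by side without a test, and the 11 bound ones allow only coarse shares. GC content was 35.5% ± 6.21 in the 11 bound members and 35.9% ± 6.67 in the 70 others. Motif 1 was present in 3 of 11 bound members, ND-MWFE, COX5B and COX7B, (27.3%) and in 13 of the 70 others (18.6%). The DRE was present in 2 of 11, ND-MNLL and ND-23 (18.2%), and in 6 of the 70 others (8.57%). The DM-domain letters had the same counts, with ND-SGDH and UQCR-11 as the bound members. GAGAGAG was found at COX7AL2 and at none of the 70 others. TTAAAA had a lower share in the bound members, 7 of 11 (63.6%), than in the others, 51 of 70 (72.9%). In the windows 50 bp either side of the summit GC content was 28.5% ± 6.38 at the 11 members, 33.1% ± 9.56 at the 1636 optimal promoter summits and 33.0% ± 8.62 at all optimal summits. It ranged over the members between 17.8% at COX7AL2 and 40.6% at COX5B, a range that takes in the mean of the other summits. DM-domain letters were found at 1 of the 11 member summits, that of ND-SGDH (9.09%), compared with 2.57% of the 1636 optimal promoter summits and 3.37% of all 4159 optimal summits; a single match carries no comparison.

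Other genes of mitochondrial energy metabolism, in 5 lists, had 14 optimal promoter peaks among 76 annotated genes (18.4%, interval 11.3 to 28.6), and the background over all protein-coding genes was 13.1%. That background lay inside the interval of the whole and of each of the 5 lists. Subunits and electron carriers outside the naming rule had 4 of 15 (26.7%, interval 10.9 to 52.0). They were Cyt-c-d, a cytochrome c gene, at optimal rank 511, levy of complex IV at rank 1815, SdhC, a membrane anchor of succinate dehydrogenase, at rank 3149, and cype of complex IV at rank 3665. Assembly factors had 2 of 15, the complex I assembly factor CIA30 at rank 49 with signal 1542, and the copper chaperone Cox17 at rank 1069. CIA30 was thus stronger than any of the 81 members, with ranks 44 in replicate 1 and 63 in replicate 2. Its summit lay 99 bp upstream.

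Pyruvate dehydrogenase and the citric acid cycle had 4 of 17 genes with an optimal promoter peak. Besides Fum1, which shares the peak of ND-ASHI, these were Idh3g, an isocitrate dehydrogenase subunit gene, at rank 615, the aconitase gene mAcon1 at rank 769 and muc, a pyruvate dehydrogenase gene, at rank 2929. Carriers and import factors had 1 of 15, Tim9a, at rank 2123. Genes of mitochondrial DNA expression and its regulators had 3 of 14, the nuclear receptor gene ERR at rank 375, Dref, which encodes the factor that binds the DRE, at rank 586, and mtSSB, the mitochondrial single-stranded DNA-binding protein gene, at rank 1996. Of the 14 genes, SdhC, levy, Fum1, Idh3g, Tim9a and Dref had no promoter entry in the full list of replicate 1. The share of all genes with an optimal promoter peak that lacked such an entry was not counted. These absences, like those among the members, therefore have no background beside them. Among all 76 genes the full list of replicate 1 covered 12 (15.8%), where the background was 24.3%, and that of replicate 2 covered 54 (71.1%), where it was 46.4%. Replicate 2 thus covered more genes than replicate 1 in these lists, among the members and among all protein-coding genes.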

How the data were processed

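Members and lists were chosen with earlier results of these data known. The data were peak lists of 2 dmrt93B-GFP ChIP-seq libraries of whole larvae, in dm6 coordinates per the labels. The deposited signal of each peak is the strength written by the authors' caller, and was used only to rank and describe peaks within a list. The deposited −log10 q value had a ceiling, 3.91 in the pooled lists, that 97.2% of optimal peaks reached, and was not used for ranking. In the full replicate lists 10.0% of entries of replicate 1 and 18.2% of replicate 2 reached the ceiling of their list. The deposited summit offset, plus the peak start, gave the summit, printed counting from 1. Neither the aligner nor the caller, the reproducibility threshold or the depth is given in the sources used here. Text deposited with the samples names one control alignment for both replicate lists; the control was not analysed here.

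Start sites came from Ensembl release 115, without transposable elements, and sequence from NCBI Release 6. The "strongest" list of a replicate is its top 4159 entries by signal; summits within 200 bp were taken as the same. Ranks of the members are those of their strongest promoter entry, except that the replicate values given beside an optimal peak are those of the entry nearest to its summit. No test was made: there is 1 group, and SDs over replicates measure 2 samples. Motifs, 10 in all, were searched as exact letters on both strands in windows of 101 bp at summits and 300 bp at promoters; the TCT initiator was not searched. Named were all members with an optimal promoter peak, up to 3 per complex leading below that list, members strong in a single replicate, those at the window's edge, and listed pathway genes with an optimal promoter peak; ATPsynbeta, ND-MLRQ, ND-51L1, UQCR-C1, UQCR-C2, COX4, ATPsynO and ATPsyndelta were named after their values were seen. Of 82 pathway symbols, 76 were in the annotation. Alternatives changed the window, list, replicate, TSS set and members. Scripts were tested on simulated data. Python 3.11.15, numpy 2.4.6, pandas 2.3.3, scipy 1.17.1 and matplotlib 3.10.9 were used.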

Additional observations from a re-analysis of the deposited data

How the results depend on the processing

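The count of 11 members with an optimal promoter peak was 7 with a 200 bp window, 6 in the stronger part of the list, 6 where the strongest lists of both replicates shared the summit, 7 where both full lists did, 7 when a summit went only to the gene of its nearest TSS, 19 in the full pooled list and 45 in the full list of replicate 2. It stayed within 1.5 times of 11 with a 1000 bp window (13), in the full list of replicate 1 (12), where the peak interval covered a TSS (8), with canonical transcripts (11), without the duplicates (10) and with the subunits outside the naming rule (15). Of the 12 members in the full list of replicate 1, 7 were among the 11, and its background was 24.3% against 13.1%. The strongest list of each replicate by itself gave 9 to 17 members. By complex those ranges were 3 to 8 for complex I against 6 in the optimal list, 1 to 1 for complex III against 1, 3 to 5 for complex IV against 3 and 2 to 3 for complex V against 1. The complex III gene was not the same, UQCR-11 in replicate 1 and UQCR-14 in replicate 2.

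Complex I moved to 10 in the full pooled list, 21 in the full list of replicate 2, 2 where the summit was shared with the strongest or with the full lists of both replicates, and 3 by nearest TSS. Complex III moved to 0 in the stronger part and where the strongest lists shared the summit, and to 6 in the full list of replicate 2. Complex IV moved to 1 with a 200 bp window, in the stronger part and by interval, and to 8 in the full list of replicate 2. Complex V moved to 2 with a 1000 bp window, 4 in the full pooled list, 3 in the full list of replicate 1 and 10 in that of replicate 2. The cause was not tested.

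The peaks of ND-51 and blw were present under all 15 alternatives, while those of ND-ASHI and ND-23 were present under 8. The median offset stayed upstream, between -132 and -84 bp over the replicates. Mean GC at the summits was 28.5%, 32.5% with 100 bp on either side, 35.5% in the promoter window and 29.8% to 34.4% over the replicates. As an alternative chosen after seeing the data, the 8 bound members with a shared promoter were 4 in the stronger part and 5 to 14 over the replicates' strongest lists. No paired analysis was possible because both samples form 1 group. Unknown depth limits every absence from a list.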
